A study of Rattus norvegicus with 6 samples.

Results

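The 832/13 clone of INS-1 cells, an insulin-secreting β-cell line from a rat insulinoma, was electroporated with a scrambled siRNA, which targets no gene of interest, and its RNA was measured 48 h later on the Affymetrix rat 230 2.0 array. The label of this control treatment is carried by 3 arrays, out of 6 arrays in the series, and the values of these 3 arrays describe which genes the control β-cells expressed. The other arrays hold cells of the same clone that received siRNA against COUP-TFII (the nuclear receptor gene Nr2f2), and no comparison with them is made here. Cells came from passages 7 to 25 and were grown with 11 mM glucose and 10% serum. All samples stem from 1 clonal line that divides in culture, so the values describe this line and not islet β-cells. The labels call the 3 arrays biological replicates and do not say what differed between them (culture, passage or day).

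A β-cell makes insulin as a prohormone, cuts it inside secretory granules and releases it when glucose rises. Glucose enters through a transporter, is phosphorylated and burned in mitochondria, and the ATP that forms closes a potassium channel, which depolarises the membrane and lets in the calcium that drives exocytosis. A small group of transcription factors holds the insulin genes and this machinery active, while genes that would uncouple secretion from glucose, such as those for lactate production, are normally kept silent. The 832/13 clone was selected for a strong insulin response to glucose and also carries a human insulin gene. Whether the rat insulin probes read human insulin RNA was not tested.

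Of 31099 probe sets, 57 were manufacturer controls, which left 31042. Each probe set pools the readings of several short probes for 1 transcript into a linear intensity. For 20826 of the 31042 the platform annotation gave 1 gene symbol, and these covered 14217 genes, each described here by its probe set with the highest mean log2 signal. The table holds no detection calls, so the highest signal among 27 probe sets for Bacillus genes, which rat RNA should not bind, served as the background level of each array. It was 15.8, 11.8 and 15.2 on control arrays 1, 2 and 3. A gene is called above background where its signal exceeded that level on 3 of 3 arrays, at background where it did not on any array, and mixed otherwise. By this rule 58.8% of probe sets were above background, 21.6% were at background and 19.6% were mixed. Of the genes, 9995 (70.3%) were above background, 2159 (15.2%) were at background and 2063 (14.5%) were mixed. The lowest mean signal of a gene above background was 14.7, and the highest mean signal of a gene at background was 13.2. A gene's percentile is its place among the 14217 genes by mean log2 signal. Probes differ in affinity, so a place in this order is not an amount of RNA, and a gene at background may still be transcribed.

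Control array 2 stood apart from the others in several ways. Its median signal was 29.9 against 37.0 and 39.4 on arrays 1 and 3, and all 30 genes at the top of the signal order had their lowest signal there. Its hybridisation spikes were also the lowest, and the gap was widest for BioC, with 101 against 512 and 531. BioB gave 107 against 221 and 215, BioD 1381 against 2128 and 2231, and Cre 5901 against 9434 and 8482. The ratio of 3′ to 5′ probes was alike on the 3 arrays, from 2.88 to 3.003 for actin and from 0.974 to 1.09 for GAPDH. Log2 signals correlated between pairs of arrays with Pearson r from 0.950 to 0.971 across the probe sets above background on both arrays of the pair, and from 0.915 to 0.922 across all probe sets. Over all probe sets the pair of arrays 1 and 3 had the lowest r, and over the brighter ones the highest. These are correlations across probe sets of a cell line, which are not independent replicates. In the lowest decile of the signal order the median coefficient of variation was 73.0%, and in the highest it was 11.9%. Leaving array 2 out gave 10278 genes above background, a count between those for leaving out array 1 and array 3. Fewer arrays then have to clear the level, so the count tends to rise whichever array is left out.

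The insulin genes and the islet amyloid gene were among the brightest transcripts of these cells, and the sequences just upstream of their start sites are shown because β-cell factors are known to act there. The same window of the glucagon gene Gcg is shown because its signal varied most between the arrays. The windows are the 250 bases before each RefSeq start site (build GRCr8), printed 5′ to 3′ on the strand of the gene. Capitals mark CATCTG (the E-box read by Neurod1 and its partners), TAATTA (letters that homeodomain factors such as Pdx1 can bind), TATAAA (the TATA box) and TGACGT (the core of the cyclic AMP response element), on either strand. None of these 4 motifs overlaps another in the windows shown. The Ins1 window lies at chr1:261185869-261186118 on the plus strand, Ins2 at chr1:207273806-207274055 on the minus strand, Iapp at chr4:176967847-176968096 on the plus strand and Gcg at chr3:67531534-67531783 on the minus strand.
Ins1: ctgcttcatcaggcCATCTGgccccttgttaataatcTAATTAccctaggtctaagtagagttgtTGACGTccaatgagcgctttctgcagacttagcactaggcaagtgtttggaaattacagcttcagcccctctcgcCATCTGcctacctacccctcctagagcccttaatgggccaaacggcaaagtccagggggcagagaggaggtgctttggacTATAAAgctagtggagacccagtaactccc
Ins2: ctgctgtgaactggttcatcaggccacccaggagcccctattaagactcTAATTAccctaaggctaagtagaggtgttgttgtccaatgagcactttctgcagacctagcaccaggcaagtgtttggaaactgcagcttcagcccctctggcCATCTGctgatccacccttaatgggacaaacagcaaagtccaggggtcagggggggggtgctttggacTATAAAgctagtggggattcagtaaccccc
Iapp: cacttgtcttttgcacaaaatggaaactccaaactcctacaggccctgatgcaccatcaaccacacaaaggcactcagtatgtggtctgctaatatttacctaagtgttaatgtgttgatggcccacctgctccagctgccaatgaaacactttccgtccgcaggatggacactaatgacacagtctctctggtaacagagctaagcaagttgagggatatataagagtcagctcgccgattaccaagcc
Gcg: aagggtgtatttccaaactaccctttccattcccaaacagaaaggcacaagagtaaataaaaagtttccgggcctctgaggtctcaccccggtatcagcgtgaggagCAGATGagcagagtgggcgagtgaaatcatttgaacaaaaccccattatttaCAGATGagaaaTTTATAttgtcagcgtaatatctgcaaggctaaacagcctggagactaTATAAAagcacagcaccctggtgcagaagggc
Ins1 held CATCTG at 236 and 110 bases before the start, and Ins2 held it at 98 bases. TAATTA began 213 bases before the start of Ins1 and 201 bases before that of Ins2, and TATAAA began 30 bases before the start in both genes. TGACGT was present in the Ins1 window, at 185 bases. Gcg held CATCTG on the opposite strand at 143 and 91 bases, together with TATAAA at 32 bases and, on the opposite strand, at 80 bases. The Iapp window held none of the 4 motifs. Among 33469 upstream windows of the same length, 13.96% held CATCTG, 4.86% held TAATTA, 12.9% held TATAAA and 6.95% held TGACGT. The E-box, homeodomain and TATA box letters occurred together in 67 windows (0.200%), Ins1 and Ins2 among them. The E-box and homeodomain letters are those of factors known to act on the insulin genes. TGACGT, which the Ins2 window lacks, was not part of this combination. The presence of Ins1 and Ins2 in this small set is therefore no independent evidence. These matches describe letters, not binding.

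Ins1 took rank 3 of 14217 genes. Its signals (probe set 1387815_at) were 15843, 9490.4 and 13544 on arrays 1, 2 and 3, a mean of 12959 ± 3216 (SD, n = 3). The gene at rank 1 was the mitochondrially encoded cytochrome c oxidase subunit COX2, followed by the ribosomal protein gene Rpl26. Ribosomal proteins supplied 20 of the 30 brightest genes, and the translation elongation factor genes Eef1g and Eef1a1 were also among them. Apart from Ins1, the secretory pathway was represented in this group by Iapp at rank 18 and by Cpe at rank 30. The antioxidant Txn1 (thioredoxin) held rank 12, and COX1 (a further mitochondrial oxidase subunit), the histone gene H2az1 and the ATP synthase gene Atp5mk made up the rest. The 10 brightest genes carried 2.49% of the summed signal of all genes, the 100 brightest 15.1% and the 1000 brightest 53.0%.

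**Figure D1:**
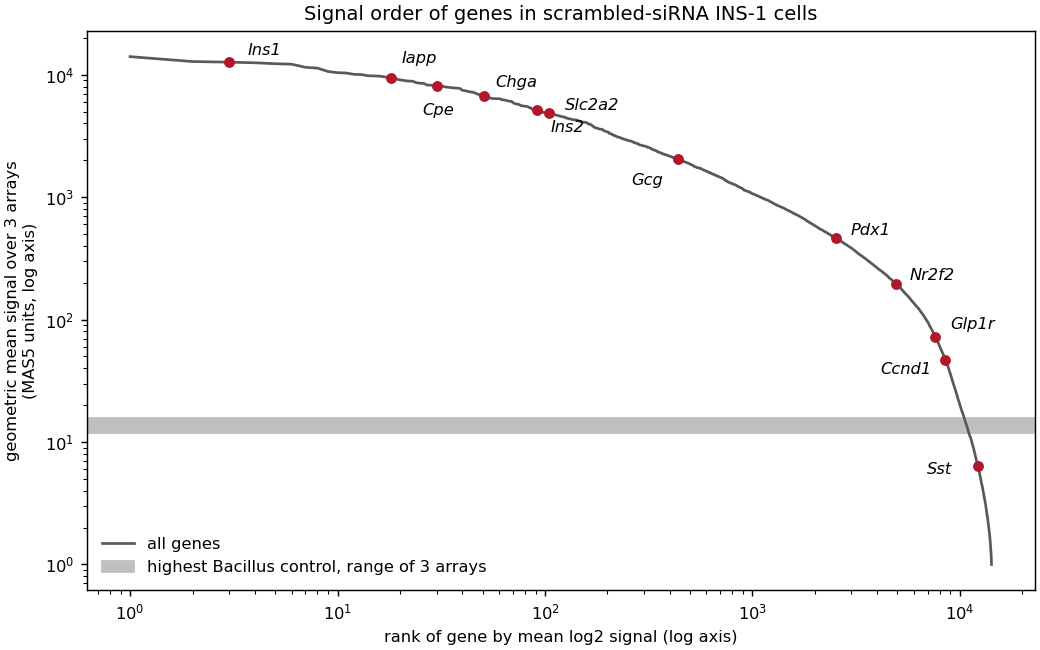
Geometric mean signal of each of the 14217 genes over the 3 scrambled-siRNA arrays (MAS5 units, log axis, values under 1 set to 1) against its rank (log axis). Red points mark named genes, and the grey band spans the highest Bacillus control signals of the 3 arrays (11.8 to 15.8). Ins1 lies at rank 3 and Sst lies under the band.

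Among the gene lists, those for protein folding in the endoplasmic reticulum, granule cargo, mitochondrial fuel use, DNA replication and mitosis, and glycolysis lay highest in the signal order. Their median percentiles were 95.6, 94.8, 89.3, 88.9 and 87.9. The lists for pancreatic acinar cells, adipocytes, other pancreatic transcription factors, peptide hormone receptors and endothelium lay lowest, with median percentiles of 12.3, 13.3, 16.6, 17.6 and 17.9. The median over all genes is the 50th percentile by construction.

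**Figure D2:**
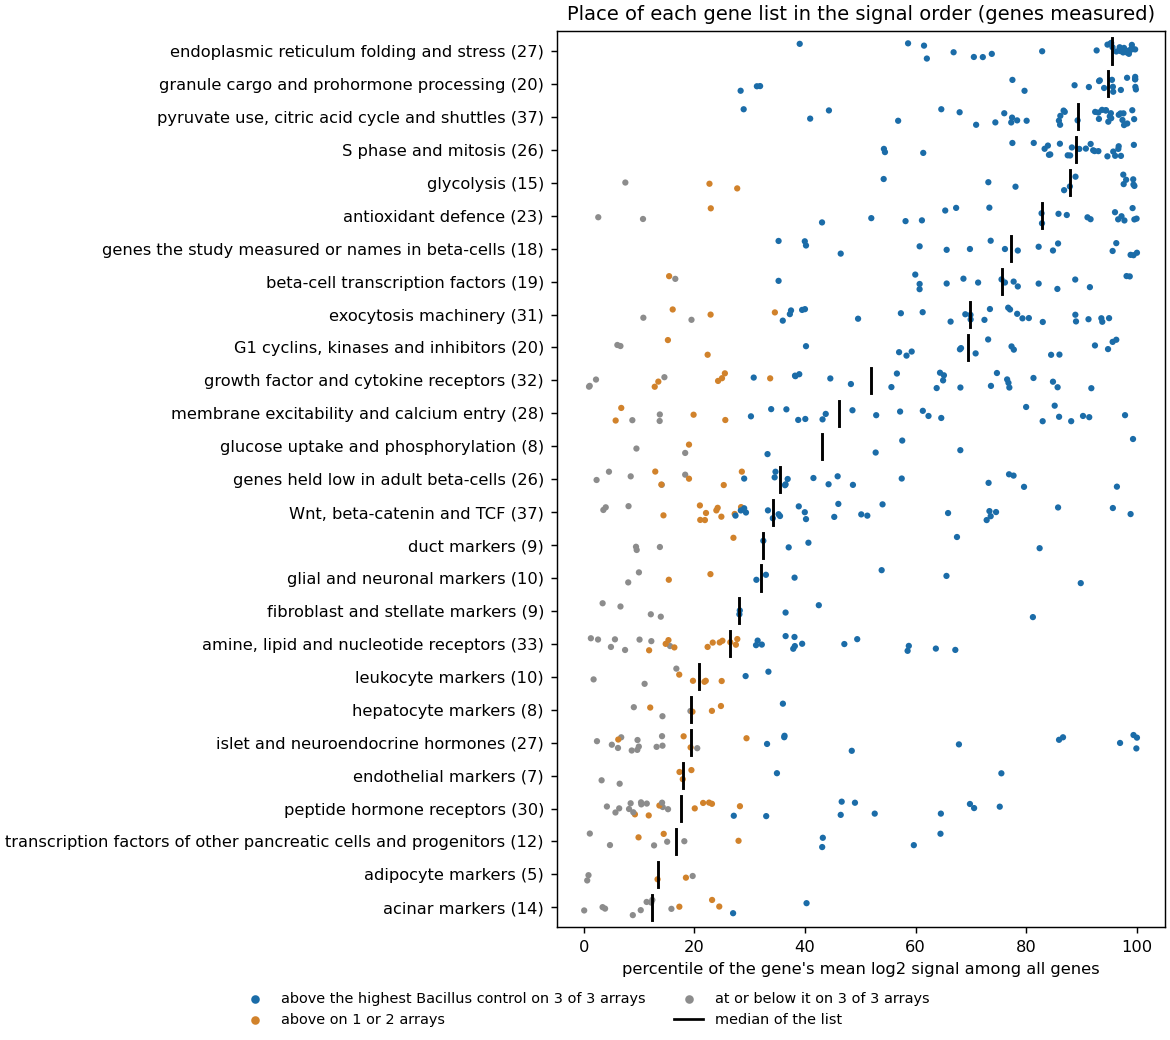
Percentile of each listed gene's mean log2 signal among all 14217 genes (horizontal axis), with 1 row per gene list, the number of genes measured in parentheses and 1 point per gene. Colours give the call against the highest Bacillus control and black bars the list medians, which run from 12.3 (acinar markers) to 95.6 (endoplasmic reticulum folding and stress).

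Peptide hormones fell into a few bright genes and a majority near or at background. Of 27 hormone genes measured, 11 (40.7%) were above background, 12 were at background and 4 were mixed, against 70.3% of all genes above background. Ins2, the second rat insulin gene, had signals of 5539, 3229.7 and 7535 on arrays 1, 2 and 3 (probe set 1370077_at) and held rank 91. Array 3 was the brightest for Ins2 and array 2 the dimmest, whereas Ins1 was brightest on array 1. Ins1 and Ins2 are near-identical copies, so part of the signal of either may come from the other. Iapp encodes amylin, which is released with insulin, and gave 9663, 9107 and 9566 (probe set 1387660_at), a mean of 9445 ± 297 (SD, n = 3). These 3 values lay closer together than those of either insulin gene.

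The glucagon gene Gcg, whose product is the hormone of the islet α-cell, was above background on every control array but differed strongly between them. Its signals were 6313, 3397 and 394 on arrays 1, 2 and 3 (probe set 1369888_at), a mean of 3368 ± 2959.6 (SD, n = 3) and rank 437. Array 1 lay 16.0 times above array 3, and no other gene above the median signal had so wide a range. Cck (cholecystokinin, a gut hormone) followed the same order with 996, 706 and 330.4, and so did Cartpt (a neuropeptide precursor of brain and islets) with 138, 84.7 and 47.96. Sct (secretin) gave 243, 331 and 128 and was also lowest on array 3. Npy (neuropeptide Y) went the other way at array 3, with 578, 424 and 808. Insulin did not follow the order of Gcg, since Ins2 was highest on the array where Gcg was lowest.

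The remaining hormone genes, among them those of the other islet cells, were dim. Ppy (pancreatic polypeptide) was above background at 28.8, 26.6 and 24.6, Gast (gastrin) at 38.4, 42.1 and 25.4 and Calca (calcitonin and its related peptide) at 38.5, 32.1 and 32.7. Sst, the somatostatin gene of δ-cells, lay at background with 5.32, 8.42 and 5.63. Ghrl, the ghrelin gene of ε-cells, gave 8.93, 1.26 and 5.18, and Pyy gave 2.73, 0.803 and 2.13, both at background. Gip, Gal, Adm and Tac1 were mixed, and their mean signals ran from 6.66 for Gal to 21.9 for Tac1. The neuropeptide genes Vip, Adcyap1, Nts, Trh, Pomc, Penk, Pdyn, Crh and Nmu were at background, with mean signals from 3.11 for Nmu to 10.9 for Pdyn, whose other probe set was mixed.

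**Figure D3:**
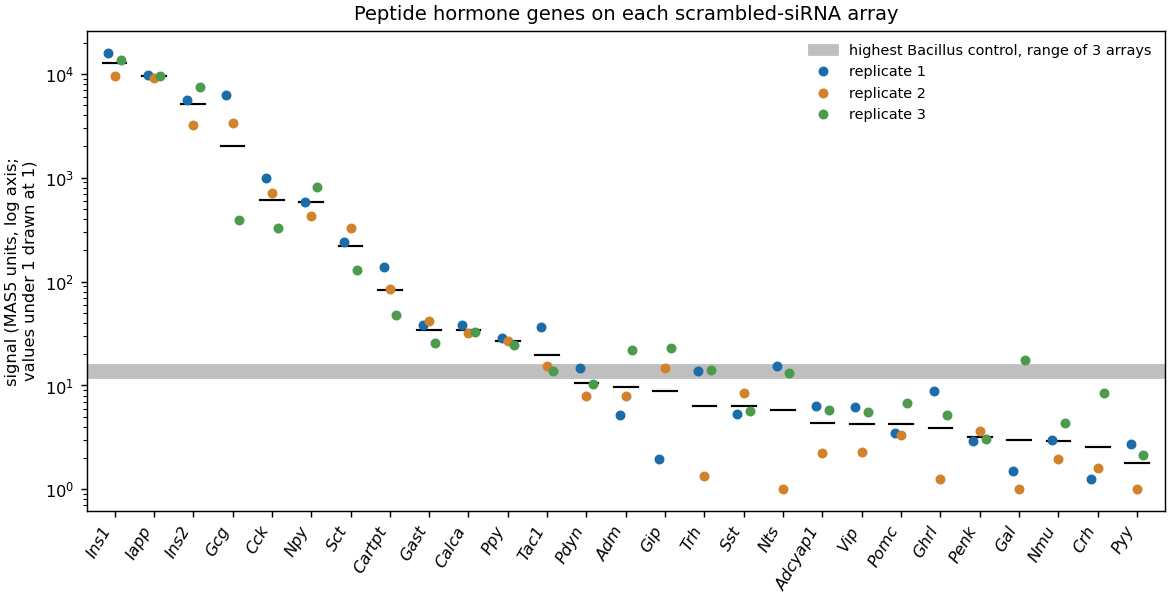
Signal of 27 peptide hormone genes (MAS5 units, log axis, values under 1 drawn at 1) on each of the 3 scrambled-siRNA arrays, ordered by mean log2 signal. Bars mark geometric means and the grey band spans the highest Bacillus control signals of the 3 arrays. Gcg spans 394 to 6313, whereas the 3 Iapp points lie between 9107 and 9663.

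All 20 granule cargo and processing genes measured were above background, against 70.3% of all genes, and 14 of them lay above the 90th percentile. The chromogranins, acidic proteins that pack hormone into granules, gave 7501, 5752 and 7108 for Chga on arrays 1, 2 and 3 (probe set 1387235_at, mean 6787 ± 918 (SD, n = 3)) and 8842, 6423 and 5793 for Chgb. Among the processing enzymes, carboxypeptidase E (Cpe) gave 9013, 7027 and 8528 and prohormone convertase 2 (Pcsk2) gave 1555, 1562 and 1699.9. The convertase chaperone Scg5 had a mean of 6994 ± 632. Secretogranin II (Scg2) was the least even of the bright members, with 1813, 4165 and 3181, and was lowest on array 1. The amidating enzyme Pam gave 2000.0, 1682 and 1091, the autoantigens Ica1 and Ptprn2 had means of 1238 ± 165 and 912 ± 103, and Ptprn had 409.9 ± 119.7. At the lower end, the vesicular amine transporters Slc18a1 and Slc18a2 had means of 18.3 ± 3.07 and 25.6 ± 10.7. The glutamate decarboxylase Gad1 gave 400.1, 278 and 391, whereas Gad2 gave 40.8, 12.02 and 23.9 and cleared the background narrowly. The distance of Gad2 from the background level did not pass limma's test (adjusted p = 0.148), nor did those of Slc18a1 (adjusted p = 0.437) and Slc18a2 (adjusted p = 0.093). The other 17 genes of the list were above background by this test, as were 67% of all genes. Pcsk1, Slc30a8 and Tmem27 are not named here.

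Of 31 exocytosis genes, 26 (83.9%) were above background against 70.3% of all genes, 2 were at background and 3 were mixed. The SNARE genes, whose products fuse granule and plasma membrane, were bright for Snap25 (1541, 938 and 1128), Vamp8 (984, 1232 and 1211) and Vamp3 (mean 747 ± 77.6). Vamp2 gave 148, 268 and 212 and Stx1a 148, 156 and 179. Among the granule GTPases, Rab37 had a mean of 1439.6 ± 278 and Rab3d 902 ± 92.8, followed by Rab3b (372 ± 41.2) and Rab3a (243 ± 29.6), while Rab27a gave 56.6, 33.3 and 46.6. The calcium sensors of the synaptotagmin family ranged from Syt5 (433, 598 and 282) and Syt4 (480.1, 419 and 297) through Syt7 (55.9, 45.6 and 38.6) and Syt9 (59.2, 21.5 and 43.2) to Syt1, which was mixed (21.5, 1.88 and 10.03). The complexins Cplx1 and Cplx2, which clamp SNARE complexes, had means of 345 ± 47.1 and 286 ± 29.8. The priming factor gene Unc13a and the calcium sensor Doc2b lay at background, with means of 9.83 ± 1.27 and 4.76 ± 1.13.

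Among genes for glucose entry and phosphorylation, 5 of 8 (62.5%) were above background, near the 70.3% of all genes. Slc2a2 (GLUT2), the main glucose transporter of rodent β-cells, gave 4889, 3886 and 6029.5 on arrays 1, 2 and 3, rank 104. The other transporters had means of 138 ± 41.9 for Slc2a1, 106 ± 4.41 for Slc2a4 and 27.2 ± 4.77 for Slc2a3. The low-Km hexokinases, which are normally kept low in β-cells, were dim. Hk1 was at background with 13.2, 3.80 and 14.5, its other probe set was at background as well, and Hk2 was mixed with 3.11, 12.6 and 21.7.

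Most glycolytic genes lay high in the signal order, whereas the lactate dehydrogenase gene Ldha lay near background. Of 15 glycolytic genes, 12 (80.0%) were above background, against 70.3% of all genes. Pgam1, Eno1 and Pgk1 had means of 6079.7 ± 179.9, 5118 ± 249 and 4914 ± 174. Of the phosphofructokinase genes, Pfkm gave 654, 899 and 683, Pfkp 615, 639 and 619 and Pfkl 94.8, 183 and 86.99. Pklr, the liver-type pyruvate kinase gene, gave 579, 743 and 741. The muscle isoform Pgam2 was at background (7.57, 1.44 and 3.83), and Aldoc and Eno3 were mixed. Ldha, whose product makes lactate from pyruvate, was measured by 1 probe set with 3.41, 3.58 and 15.2 and was mixed, since its array 3 value lay just over the level of that array. Its distance from background was -1.31 on the log2 scale and did not pass limma's test (adjusted p = 0.0674).

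All 37 genes for pyruvate use, the citric acid cycle and the shuttles were above background, against 70.3% of all genes. Of the 37, 29 lay above the 75th percentile. ATP citrate lyase (Acly), which exports cycle carbon as acetyl-CoA, was the brightest with 5888, 5233 and 6091. The malate dehydrogenases Mdh1 and Mdh2, which carry reducing equivalents into mitochondria, had means of 4549.9 ± 424 and 2904 ± 77.5. Citrate synthase (Cs) had 2352 ± 177, and the pyruvate dehydrogenase subunits Pdhb and Pdha1 had 2439.8 ± 237 and 1166 ± 18.6. Pyruvate carboxylase (Pc), the anaplerotic enzyme of β-cells, gave 126, 139 and 126. The malic enzyme gene Me1 gave 1092, 1282 and 915. Its relatives gave 346, 428 and 291 for Me2 and 57.5, 74.02 and 58.02 for Me3. Among the kinases that inhibit pyruvate dehydrogenase, Pdk3 and Pdk1 had means of 374 ± 63.1 and 326 ± 36.9, and Pdk2 and Pdk4 had 54.1 ± 28.1 and 19.7 ± 6.52. Pdk4 did not pass limma's test (adjusted p = 0.365), and its other probe set (mean 2.57) was at background. The other 36 genes of the list were above background by this test, as were 67% of all genes. The glycerol phosphate dehydrogenase Gpd1 gave 2137, 1968 and 818 and the aspartate aminotransferase Got1 gave 471, 156 and 364, so that array 3 was lowest for the former and array 2 for the latter.

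Both subunits of the ATP-sensitive potassium channel were above background, with 917, 974 and 853 for the pore Kcnj11 and 541, 714 and 514 for the sulphonylurea receptor Abcc8. The L-type calcium channel pore genes gave 144, 164 and 176 for Cacna1c and 148, 110.3 and 142 for Cacna1d. Cacna1h had a mean of 84.8 ± 22.2, Cacna1a 42.99 ± 8.52 and Cacna1b 37.5 ± 15.2, while Cacna1e and Cacna1g were at background with means of 7.48 ± 4.56 and 6.81 ± 3.49. The sodium channel Scn3a gave 781, 577 and 746, whereas Scn8a and Scn9a were mixed with means of 5.15 ± 6.05 and 6.10 ± 8.65. The calcium pumps of the endoplasmic reticulum, Atp2a2 and Atp2a3, had means of 2597 ± 264 and 828 ± 79.6. In all, 21 of 28 excitability genes were above background, against 70.3% of all genes, 3 were at background and 4 were mixed.

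Genes that mature β-cells are known to hold low ranged from background to percentile 96.4. Of 26 measured, 16 (61.5%) were above background, near the 70.3% of all genes, 5 were at background and 5 were mixed. Mgst1, a microsomal glutathione transferase, gave 2049, 1570.2 and 1852. Oat (ornithine aminotransferase) gave 389, 669 and 240.1 and Slc16a1, the monocarboxylate transporter MCT1, gave 109, 203 and 108. The other probe set of Slc16a1 had a mean of 2.36 and was at background. Lmo4, Mylk and Tgm2 had means of 359 ± 51.3, 350.2 ± 97.4 and 284 ± 49.8. Rest, the repressor of neuronal genes, was at background with 8.95, 1.000 and 6.16, as were Maf (7.82, 2.40 and 13.2), Cd302 (0.651, 0.159 and 14.2) and Hsd11b1 (2.49, 1.77 and 1.27). With the background level doubled, 10 of the 26 were above it.

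Of 19 β-cell transcription factors, 17 (89.5%) were above background, against 70.3% of all genes. Pax6 and Neurod1, which act in all islet endocrine cells and switch on hormone genes, lay highest. On arrays 1, 2 and 3 the signals were 3688, 3243 and 3850.5 for Pax6 and 2998, 2552 and 2837 for Neurod1. Foxa2 had a mean of 928 ± 98.3 and Isl1 of 577 ± 116. Mafa, the insulin gene activator of mature β-cells, gave 513, 1039 and 738 and was highest on array 2. Pdx1, the homeodomain factor that binds the insulin promoters, gave 505, 472 and 408 (probe set 1369516_at), a mean of 462 ± 49.1 (SD, n = 3) at percentile 82.2. Nkx2-2 had 358 ± 41.04, and Nkx6-1 gave 191, 136 and 149. Mlxipl (ChREBP, the carbohydrate-response factor) had 376 ± 56.8, Hnf4a 328 ± 13.1, St18 325 ± 85.2, Myt1 257 ± 26.4, Prox1 229 ± 30.99 and Foxo1 160.3 ± 38.2. Rfx3 varied more, with 159, 84.4 and 257, and its other probe set (mean 5.51) was at background. The other probe sets of Hnf4a had means of 13.3 (mixed) and 8.65 (at background). Pax4 was mixed (17.5, 12.6 and 1.58) and Foxa1 was at background (13.6, 5.91 and 5.78).

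Nr2f2, which encodes COUP-TFII and is the siRNA target on the arrays not used here, was expressed in the control cells. Its brightest probe set gave 182, 235 and 179, a mean of 199 ± 31.5 (SD, n = 3) at percentile 65.6. Its other probe sets had means of 69.1 ± 9.48 and 16.6 ± 3.13, and all 3 were above background.

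Factors of other pancreatic lineages were mostly dim, with 4 of 12 (33.3%) above background against 70.3% of all genes, 5 at background and 3 mixed. Hes1, a target of Notch signalling, gave 179, 204 and 183, and Gata4 gave 156, 157 and 135. Gata6 gave 38.3, 66.8 and 74.8 and Bhlha15 (Mist1, of acinar cells) 65.9, 69.7 and 42.5. The acinar factors Ptf1a and Nr5a2 had means of 10.1 ± 8.28 and 8.97 ± 1.57, the progenitor factors Onecut1 (mixed) and Hhex (at background) had 18.9 ± 8.77 and 7.996 ± 4.53, and the endocrine progenitor factor Neurog3 gave 1.37, 0.796 and 1.90. The α-cell and progenitor factors Irx1, Irx2 and Pou3f4 had means of 6.17 ± 6.11, 4.17 ± 5.27 and 5.68 ± 0.952, none of them above background on 3 arrays.

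**Figure D4:**
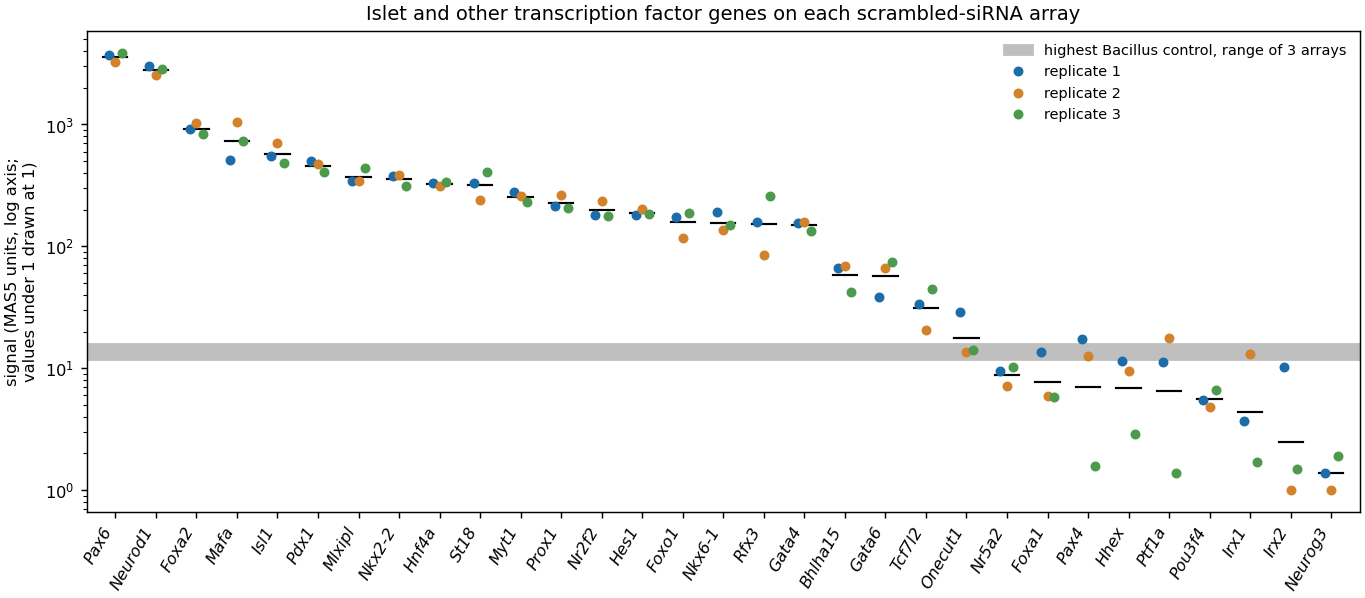
Signal of 31 transcription factor genes (MAS5 units, log axis, values under 1 drawn at 1) on each of the 3 scrambled-siRNA arrays, ordered by mean log2 signal. Bars mark geometric means and the grey band spans the highest Bacillus control signals of the 3 arrays. Pax6 and Neurod1 lie highest, and Neurog3 lies under the band on every array.

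Receptors for peptide hormones, amines, lipids and nucleotides lay low in the signal order. Of 30 peptide hormone receptors, 10 (33.3%) were above background, and of 33 receptors for amines, lipids and nucleotides, 14 (42.4%) were, against 70.3% of all genes. Receptors for the glucagon family supplied several of the brightest. The glucagon receptor Gcgr gave 336, 270.1 and 334 on arrays 1, 2 and 3. The incretin receptor Gipr gave 272, 165 and 309, and Glp1r, the receptor for GLP-1 that raises cyclic AMP and insulin release, gave 64.7, 68.1 and 86.97, a mean of 73.3 ± 11.99 (SD, n = 3) at percentile 46.4. The distance of Glp1r from background was 2.36 on the log2 scale (limma, adjusted p = 2.18e-06). The PACAP receptor Adcyap1r1 had a mean of 189.8 ± 23.6, and Vipr1 gave 43.8, 128 and 209, a range of 4.78 times. The other probe set of Vipr1 had a mean of 3.74 and was at background. Of the somatostatin receptors, Sstr3 gave 244, 229 and 277 and Sstr1 67.6, 66.97 and 87.5, Sstr2 and Sstr5 cleared background with means of 26.8 ± 6.34 and 16.8 ± 0.424, and Sstr4 was at background. The galanin receptor Galr2 gave 88.01, 84.9 and 82.97. Npy1r, Npy5r, Glp2r, Sctr, Oxtr and Mc4r were at background.

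Among amine and nucleotide receptors, Adora1 (adenosine) gave 229, 262 and 161, P2rx4 (ATP) 179.9, 251 and 132 and Adra2a, the adrenergic receptor that inhibits insulin release, 125, 191 and 119.6. Ptger3 had a mean of 145 ± 39.3, Casr 87.98 ± 13.6 and P2ry1 76.6 ± 16.3. The muscarinic receptor Chrm3, through which acetylcholine raises secretion, gave 44.3, 28.2 and 53.4. Drd2 had 39.5 ± 2.26, Htr3a 40.5 ± 5.97 and Htr1b 35.95 ± 9.56. Chrm1, Adra1a and Drd5 lay at background with means of 1.48 ± 0.416, 1.91 ± 0.606 and 2.60 ± 0.715. The fatty acid receptor Ffar1 is not named here.

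Growth factor and cytokine receptors were above background in 22 of 32 cases (68.8%), close to the 70.3% of all genes. The prolactin receptor Prlr, which drives β-cell growth in pregnancy, gave 1748, 285 and 1716, so that array 2 was 6.14 times below array 1. Its other probe sets had means of 470.0 ± 290.5 and 31.05 ± 13.96. Igf1r gave 812, 421 and 462 and Igf2r had a mean of 573 ± 35.3. Insr, the insulin receptor, gave 46.8, 49.9 and 34.3. Il1r1, the receptor for the interleukin that injures β-cells, gave 461, 218 and 393, and the interferon-γ receptor chains Ifngr1 and Ifngr2 had means of 304 ± 34.2 and 341 ± 51.2. The growth hormone receptor Ghr gave 380.5, 352 and 176. Erbb2, Tnfrsf1b and Tlr4 were at background, with means of 1.33 ± 0.883, 1.29 ± 0.563 and 2.31 ± 2.58. Lepr was at background by the probe set that stands for it (7.44 ± 4.28), while 2 of its other 6 probe sets were mixed. Egfr and Met were mixed.

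Genes of DNA replication and division lay high in the order. All 26 genes of S phase and mitosis were above background, against 70.3% of all genes, and 23 of the 26 lay above the 75th percentile. Pcna, the sliding clamp of DNA replication, gave 5791, 5356 and 5404, and the mitotic kinase gene Cdk1 gave 2052, 2464 and 1879. Ccna2 and Ccnb1 had means of 1966 ± 346 and 1919 ± 97.4, and Mki67 gave 1219.6, 756 and 1341. The replicative helicase genes ran from Mcm3 (494 ± 58.98) to Mcm7 (1619.7 ± 224). Cenpe, a kinetochore motor, differed most between arrays, with 171, 35.1 and 259.

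In G1, 16 of 20 genes (80.0%) were above background, against 70.3% of all genes. Of the D-type cyclins, which pair with Cdk4 and Cdk6 to start the cycle, Ccnd2 gave 1714, 1437 and 2229, Ccnd3 209, 276 and 191 and Ccnd1 52.4, 45.98 and 42.97. Ccnd1 lay at percentile 40.2, and its other probe sets had means of 40.7 ± 12.4 and 26.1 ± 10.9, the latter mixed. Its distance from background was 1.73 on the log2 scale (limma, adjusted p = 1.50e-04). Cdk4 gave 1335, 1848 and 1593, whereas Cdk6 was mixed with 23.2, 7.72 and 9.53. Among the inhibitors, Cdkn1b (p27) had a mean of 1374 ± 199.8, Cdkn2c (p18) 598 ± 144, Cdkn2d (p19) 542 ± 145 and Cdkn1a (p21) 147 ± 16.6. Cdkn2a and Cdkn2b, which encode p16 and p15 and brake β-cell division with age, were at background, with 1.77, 0.749 and 14.1 for Cdkn2a and 8.95, 0.742 and 3.41 for Cdkn2b. Men1, the menin gene, had 359 ± 51.8, and the tumour suppressor Rb1 132 ± 23.04.

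Wnt ligands stabilise β-catenin, which then acts with TCF factors on genes such as Axin2, Ccnd1 and Myc. Of 37 genes of this pathway, 24 (64.9%) were above background, 3 at background and 10 mixed, against 70.3%, 15.2% and 14.5% of all genes. Ctnnb1 (β-catenin) gave 4474, 2829.7 and 4772 with its brightest probe set, while its others had means of 2443 ± 308.6, 229 ± 31.9 and 5.21 ± 7.17, the last at background. The TCF genes lay low in the order. Tcf7l2 gave 33.99, 20.5 and 44.7 with its brightest probe set, a mean of 33.1 ± 12.2 (SD, n = 3) and a distance of 1.15 above background on the log2 scale (limma, adjusted p = 0.00927), and 3 of its other 4 probe sets were at background on every array. Lef1 gave 29.9, 16.7 and 15.3, and Tcf7 and Tcf7l1 were mixed with means of 11.7 ± 4.83 and 16.1 ± 15.5. The destruction complex genes Csnk1a1, Apc, Axin1 and Gsk3b had means of 1584 ± 67.8, 307 ± 70.3, 276 ± 5.78 and 98.5 ± 13.2. Of the ligands, Wnt4 gave 455, 264 and 189.5, Wnt1 had a mean of 30.6 ± 11.8, and Wnt11 and Wnt5b were at background. Among the receptors, Fzd6 and Lrp6 had means of 96.4 ± 37.9 and 70.8 ± 5.88, and Fzd5 was at background.

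A list of genes of interest in β-cells, among them Ins1, Pdx1, Ccnd1, Glp1r and Tcf7l2, had 18 members measured. All 18 were above background, against 70.3% of all genes, and all were above it by limma's test, against 67% of all genes. Besides those above, the pathway target Myc gave 523, 545 and 667 and Axin2 gave 41.9, 43.6 and 53.5. Glul (glutamine synthetase), a further target, gave 271, 293 and 295. The list holds genes that the study itself measured or named in these cells, so the count is no independent evidence.

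Protein folding genes lay at the top of the order, with all 27 above background and 18 above the 90th percentile. The share above background among all genes was 70.3%. The chaperone Hspa5 (BiP) gave 4629.8, 5229 and 3308 and P4hb, a disulphide isomerase that folds proinsulin, gave 4670.1, 4858 and 3594. The translocon and signal peptidase genes Sec61g and Spcs1 had means of 6871 ± 371 and 4583 ± 283. The stress factors Atf4 and Xbp1 had 1513 ± 185 and 1483 ± 174, whereas Ddit3 (CHOP) gave 192, 198 and 113 and Trib3 gave 45.9, 49.3 and 35.8. Several chaperones were lowest on array 3. Pdia4 gave 581, 810.3 and 229.7, Calr 1699.7, 1652 and 853 and Dnajc3 335, 341 and 167, while Ero1b, an oxidase of islets, was highest there with 197, 158 and 496.

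Antioxidant genes were uneven. Of 23, 20 (87.0%) were above background against 70.3% of all genes, with Txn1 (11781, 8486 and 10246), Sod1 (6609, 5686 and 5948) and the peroxiredoxin Prdx2 (4807, 4919 and 4296) highest. Txnip, a glucose-induced inhibitor of thioredoxin, was among the most even genes with 2508, 2484 and 2474. Catalase (Cat) gave 275, 403 and 205 and Gpx4 had a mean of 2169 ± 230.1. Gpx1, the main peroxide-removing glutathione peroxidase of many tissues, was at background with 3.19, 0.692 and 2.02 (limma, distance -2.93 on the log2 scale, adjusted p = 9.10e-04), and Gpx2 was at background with 6.77, 0.701 and 14.8. Each of the latter genes was measured by 1 probe set.

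Markers of other pancreatic and tissue cells differed within and between lists. Of 14 acinar genes, 2 were above background, the brighter being Ctrb1 with 51.8, 56.3 and 36.1, and Prss2 and Amy2a3 had means of 0.602 ± 0.234 and 3.36 ± 4.84. Their summed signal was from 148 to 167 on the 3 arrays. Of 5 adipocyte genes none was above background, of 8 hepatocyte genes 1, of 10 leukocyte genes 2, of 7 endothelial genes 2, of 9 duct genes 5, of 9 fibroblast and stellate genes 5, and of 10 glial and neuronal genes 6. The share above background among all genes was 70.3%. Pecam1 and Emcn of endothelium were at background, while Kdr was above it with a mean of 31.2 ± 5.74. Itgam, Cd8a and Cd74 of leukocytes were at background, while Cd68 and Csf1r were above it with means of 27.7 ± 6.99 and 21.02 ± 9.80. Among fibroblast and stellate genes, Dcn, Lum, Pdgfrb and Col1a2 were at background, while Acta2, Pdgfra, Col3a1 and Col1a1 were above it with means of 56.7 ± 15.4, 35.4 ± 5.76, 18.8 ± 6.15 and 18.2 ± 3.91. Among duct genes, Krt19, Spp1 and Tff2 were at background, while Car2, Aqp5, Aqp1 and Muc1 were above it with means of 228 ± 86.5, 51.3 ± 21.9, 38.1 ± 12.5 and 26.7 ± 11.1. Several of these cleared the background narrowly. The distances of Col3a1, Col1a1, Csf1r and Muc1 did not pass limma's test (adjusted p = 0.460, 0.471, 0.326 and 0.0665). The other probe sets of Col1a1, Kdr and Aqp1 were at background. The brightest genes of these lists were Krt7 (a keratin of ducts, 442, 532 and 432), Thy1 (483, 409 and 421), Mbp (myelin basic protein, 756, 738 and 906) and Esam (an endothelial adhesion molecule, 340.3, 378 and 248). Tubb3 and Syn1, neuronal genes that islet cells also express, had means of 198 ± 30.03 and 114 ± 17.6. The other probe set of Tubb3 had a mean of 9.88 and was at background.

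Replicate spread was small for most bright genes and large for a few. Among the 7109 genes above the median signal, the highest array exceeded the lowest by a median of 1.32 times. In 492 of them (6.92%) the ratio was at least 2, and in 54 (0.760%) at least 4. Array 2 held the lowest value in 313 of the 492, array 3 in 126 and array 1 in 53. Across all 7109 genes array 2 was lowest in 1766, fewer than array 1 (2500) or array 3 (2843).

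The genes with the widest range were chosen after their values were seen, by the ratio of the highest to the lowest array. After Gcg came Thoc2, an mRNA export gene, with 329, 29.3 and 369.5. The neural factor Bhlhe22 gave 311, 477 and 39.7 and the secreted glycoprotein Stc1 (stanniocalcin) gave 1806, 660.1 and 203, both lowest on array 3 as Gcg was. The imprinted gene Mest gave 710.0, 354 and 99.2, in the same order as Gcg. A larger set was low on array 2 alone, among them Phip (429.5, 73.2 and 683), Kif20b (571, 81.3 and 697), Ranbp2 (445, 55.9 and 439.6), Smc4 (411, 78.2 and 528), Cenpe and Prlr. Array 2 also had the lower spike signals given above, and their part in these values was not tested.

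**Figure D5:**
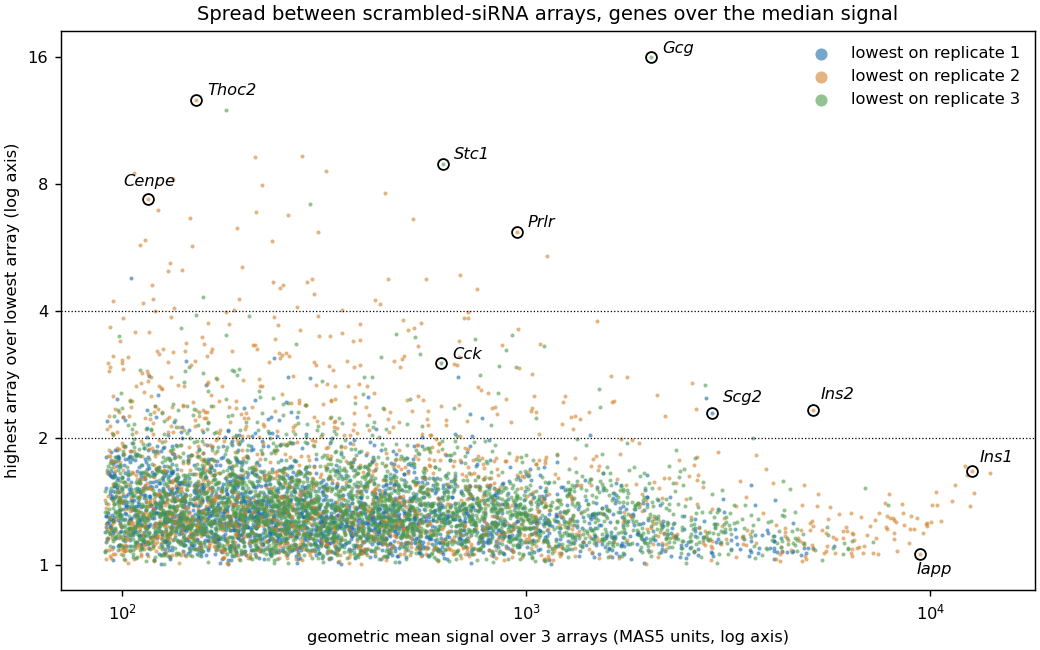
Ratio of the highest to the lowest of the 3 scrambled-siRNA arrays (log axis) against geometric mean signal (MAS5 units, log axis) for the 7109 genes above the median signal, 1 point per gene, coloured by the array that held the lowest value. Dotted lines mark ratios of 2 and 4. Gcg has the widest range at 16.0, and all 30 genes at the top of the signal order were lowest on replicate 2.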

How the data were processed

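RNA of scrambled-siRNA 832/13 INS-1 cells was labelled, hybridised to the 3 control arrays and scanned by the authors, who processed the scans with MAS5 (version not given in the sources used here) and deposited the resulting linear intensities, from which background had been subtracted and which had been scaled to reference probes that are not named. Their part in the low spike signals of control array 2 was not tested. Groups were taken from the treatment label.

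No further normalisation was applied. The floor was an intensity of 1, and values were analysed as log2. Gene symbols came from the platform annotation, where 20826 probe sets had 1 symbol, 436 had several and 9780 had none, and 20758 of the first had a gene ID in the RefSeq table. Probe sets with several symbols or none were left out of gene counts. Of the listed symbols, 517 of 579 were measured. The main call has no test. The distance of each probe set from the highest Bacillus control of its own array was also tested against 0 with limma (version 3.58.1, R version 4.3.3) by a moderated two-sided test whose prior variance followed the signal level, adjusted by Benjamini and Hochberg's method over 31042 probe sets with a threshold of 0.05, and the script was tested on simulated data. This test called 16852 probe sets above background (54.3%) and 5192 below it (16.7%). It covers the spread of 3 arrays and not the choice of the Bacillus level. The number of arrays limits the precision.

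By rule the genes to name were the 6 markers Ins1, Ins2, Iapp, Gcg, Chga and Pdx1, the genes the study measured or names, the 30 brightest genes, every hormone and transcription factor listed, and the 8 highest and 8 lowest of each other list. Ribosomal protein genes and part of the list members are given in the text as counts or ranges, and a few further members were named for their role or their spread. The members, lists and rules were chosen with earlier results of these data known. Upstream windows came from the RefSeq promoter table (GRCr8), and scripts used Python 3.11.15, pandas 2.3.3, numpy 2.4.6 and matplotlib 3.10.9. Alternatives were other background levels, quantile normalisation, log2(signal + 16), other rules for genes with several probe sets, and leaving out each array.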

Additional observations from a re-analysis of the deposited data

How the results depend on the processing

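No paired analysis was possible because the results describe 1 group and come from no comparison between groups. With the background level set at 2 times the highest Bacillus signal, 12414 probe sets were at or below it in place of 6719, and the genes above it were 10 of 26 among those held low in β-cells, 1 among acinar, 0 among leukocyte, 2 among fibroblast and 0 among hepatocyte markers. With the highest Bacillus signal over the 3 arrays as the level, 1 acinar, 1 leukocyte and 3 fibroblast genes were above it. Without probe sets that can read several transcripts, 1 endothelial gene was above background. Counts of the remaining lists stayed within 1.5 times under these and the other levels. Leaving out each array in turn gave from 10245 to 10451 genes above background, from 1 to 2 for the hepatocyte list, and from 3433 (without array 2) to 5491 probe sets below background by limma.

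The median percentiles of lists depended more on the choice of probe set. With the median of all probe sets of a gene in place of the brightest, they were 64.9 for exocytosis, 37.4 for glucose uptake, 38.9 for excitability, 32.0 for genes held low, 68.0 for β-cell factors, 23.0 for amine receptors, 40.2 for growth factor receptors, 90.2 for S phase, 37.4 for Wnt genes, 87.0 for antioxidants, 13.8 for acinar, 21.8 for fibroblast and 27.8 for glial markers. Without probe sets that can read several transcripts, they were 14.5 for hormones, 33.0 for glucose uptake, 87.1 for pyruvate use, 14.5 for peptide receptors, 24.2 for amine receptors, 44.9 for growth factor receptors, 88.1 for S phase, 12.6 for acinar and 27.4 for glial markers. On log2(signal + 16) they were 19.6 for peptide receptors, 26.9 for amine receptors and 12.4 for acinar markers, and after quantile normalisation 27.1 for amine receptors and 11.95 for acinar markers. Leaving out each array gave from 15.7 to 23.0 for hormones, 87.2 to 88.9 for glycolysis, 14.9 to 23.1 for other pancreatic factors, 16.2 to 20.7 for peptide receptors, 25.6 to 29.0 for amine receptors, 88.5 to 89.6 for S phase, 31.8 to 36.6 for Wnt genes, 12.4 to 15.4 for acinar and 8.23 to 16.5 for adipocyte markers. The cause of these differences was not tested. In the 680 genes where 1 probe set was above and another at background on all arrays, the call rests on the brighter. Besides those given above, named genes of this kind include Adcyap1r1, Apc, Calca, Il1r1, Lmo4, Pgk1, Slc18a2, Slc2a3 and Sstr1. Probe sets near the Bacillus level are the least certain, since genes in the lowest decile varied most between arrays.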
